A study of Homo sapiens with 15 samples.

Results

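The 10 genes described here encode mucins, keratins and transcription factors that mark the airway and other simple epithelia. They are the secreted mucins MUC5AC and MUC5B, the membrane mucin MUC1, the keratins KRT7, KRT8, KRT15, KRT18 and KRT19, and the transcription factors FOXJ1 and SOX9. They were taken by name, as the rows of the count table whose Ensembl ID carries each symbol, and the rule sets no threshold on a measured value. The list was nevertheless chosen with earlier results of these data known. All 10 were found among 62754 gene IDs, and all 10 passed the filter on low counts, which left 19781 genes for testing.

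The libraries came from messenger RNA of NCI-H69, an established human line of classic small cell lung cancer, a neuroendocrine tumour. The series studies FTO, a demethylase acting on the m6A mark of RNA, and names both compounds used here, CS2 and FB23-2, as its inhibitors. CS2 is also known as brequinar, which blocks DHODH in pyrimidine synthesis. The groups were H69 with DMSO, the solvent control, H69 with CS2 and H69 with FB23-2, each with 3 libraries described in the series as biological replicates. The labels name no change of genotype in any group, and all groups are a single line, so results hold for this line. For neither compound do the labels state a dose or how long the cells were treated, and a difference between CS2 and FB23-2 is one between these treatments at unstated doses. Libraries of the line H82, 6 in number, were not analysed here.

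The DMSO libraries held 31404658 to 45022633 counts, the CS2 libraries 29916267 to 33663742 and the FB23-2 libraries 32352835 to 43957839. Levels are given as CPM, the gene's count divided by the TMM-scaled library total in megacounts, and 3 reads equalled 0.0666 to 0.101 CPM. FB23-2 replicate 2 stood apart in its share of counts from the mitochondrial genome, 10.97%. The remaining FB23-2 libraries had 6.83% and 6.91%, DMSO libraries 5.18% to 5.69% and CS2 libraries 7.30% to 9.05%. The gene counts of FB23-2 replicate 2 also differed more from those of its replicates, with chi-square statistics of 48.94 and 46.95 per degree of freedom. Other pairs of libraries within a group had 4.16 to 14.02. Classic neuroendocrine markers were high, with CHGA at 604 ± 21.2 CPM and NCAM1 at 543 ± 23.6 CPM (SD, n = 3) with DMSO, while YAP1, BPIFA1, CD3E and KRT20 had 0 counts in all 9 libraries. Of 15 mesenchymal genes 12 were tested, and their summed level was 137 to 142 CPM with DMSO, 97.5 to 111 with CS2 and 88.2 to 113 with FB23-2, with VIM at 2 counts in all. Of 10 blood and endothelial genes 3 were tested, with summed levels of 5.996 to 6.16, 3.80 to 4.13 and 2.24 to 2.77 CPM. The part of these shifts in the results below was not tested.

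Keratins build the intermediate filaments of epithelial cells, and each filament needs a type I partner (here KRT15, KRT18 and KRT19) together with a type II partner (KRT7 and KRT8). MUC5AC and MUC5B are the gel-forming mucins that goblet cells and submucosal glands release into airway mucus, whereas MUC1 stays anchored in the apical membrane. FOXJ1 is the transcription factor that switches on the genes of motile cilia, and SOX9 marks distal lung progenitors, gland ducts and cartilage.

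The sequences shown here come from the GENCODE 29 transcripts on GRCh38, read 5′ to 3′ along each transcript. The first set is the 48-base coding stretch at the end of the central rod of 4 of the keratins, among the most conserved parts of the family, shown to compare a type II keratin with 3 of type I. Capitals mark the 23 positions at which the 4 genes are not all alike.
KRT7 (plus strand of chromosome 12): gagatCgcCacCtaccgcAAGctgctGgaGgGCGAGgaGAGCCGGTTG
KRT18 (plus strand of chromosome 12): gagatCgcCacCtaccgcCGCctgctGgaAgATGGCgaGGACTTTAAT
KRT15 (minus strand of chromosome 17): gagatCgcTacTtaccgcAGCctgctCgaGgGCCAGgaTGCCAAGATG
KRT19 (minus strand of chromosome 17): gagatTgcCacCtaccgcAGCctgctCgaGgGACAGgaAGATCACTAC

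In this stretch the neighbouring type I keratins KRT15 and KRT19 shared 75% of bases, as did KRT15 and the type II keratin KRT7, while KRT15 and KRT18 shared 64.6%, the lowest of the 6 pairs. Over whole principal transcripts, 47.6% of the 50-base windows of KRT18 and 36.9% of those of KRT8 were also found in another gene. Both keratins have many processed pseudogenes. Counts given to 51 KRT8 pseudogene IDs came to 2.23% to 2.43% of the KRT8 count with DMSO, 1.31% to 1.94% with CS2 and 3.31% to 4.28% with FB23-2. For KRT18 and 68 pseudogene IDs the shares were 3.44% to 4.21%, 1.88% to 3.90% and 3.87% to 4.68%. KRT8 and KRT18 also overlap at their starts on opposite strands, by 525 exon bases, which is 16.3% of the exon bases of KRT18 and 7.63% of those of KRT8. Because the strand setting of the counting was not given in the sources used here, levels of these paired genes are less certain than those of KRT15 and KRT19, whose shared windows were 0.328% and 1.79%.

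The second set is the stretch of preset length (24 bases for MUC5AC and MUC5B, 60 for MUC1) found most often, in frame, in each mucin. Such a stretch may be only part of a repeat unit, and the copy numbers count exact matches of that length. They are shown because the repeats carry the sugar chains that make a mucin. Reads inside the repeats also match many positions of the same gene.
MUC5AC repeat (plus strand of chromosome 11, 15 copies): agccctgttcccaccaccagcaca
MUC5B repeat (plus strand of chromosome 11, 6 copies): accccagggaccacctggatcctc
MUC1 repeat (minus strand of chromosome 1, 19 copies): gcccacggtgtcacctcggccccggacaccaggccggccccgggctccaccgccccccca

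Windows of 50 bases that recur within the same transcript made up 21.4% of MUC5AC, 29.2% of MUC5B and 42.4% of the longest MUC1 transcript. Such reads point to 1 gene only. Windows shared with another gene were 0.379% for MUC5AC and 0% for MUC1, FOXJ1 and SOX9.

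With DMSO, levels per kilobase of exon placed KRT8 first at 75.3 ± 4.79 CPM per kb (SD, n = 3), followed by KRT19 at 49.1 ± 2.91 and KRT18 at 20.7 ± 0.871. SOX9 (9.90 ± 0.775) and KRT15 (9.53 ± 0.529) came next and overlapped. MUC1 stood at 5.01 ± 0.191, MUC5AC at 1.35 ± 0.209 and KRT7 at 0.760 ± 0.156 CPM per kb. The last places belonged to MUC5B (0.421 ± 0.0279) and FOXJ1 (0.356 ± 0.0998), whose ranges overlapped, while all other neighbours in this order were separate in their libraries. On this scale KRT8, KRT19, KRT18 and KRT15 thus stood above the mucins and FOXJ1 with DMSO, and KRT7 stood below MUC1 and MUC5AC. The place of KRT7 depends on the gene model. Over principal transcripts its mean was 1.77 CPM per kb, above MUC5AC at 1.35. The place of MUC1 depends on it too, since MUC1 was at 27.5 CPM per kb over its principal transcript of 859 bases. That is above KRT15 at 12.9 and SOX9 at 9.90 on that scale.

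Against DMSO, FB23-2 lowered 9 of the 10 genes, and only MUC1 did not pass the test. The secreted mucins fell most, MUC5AC 40-fold and MUC5B 22.9-fold, followed by FOXJ1, KRT15, KRT7 and KRT19. Without FB23-2 replicate 1 the log2 fold change of MUC5B moved from -4.51 to -5.28. MUC5AC had -5.32 with all libraries and -5.48 to -5.14 over the alternatives. CS2 gave a mixed result, with 6 genes higher (FOXJ1, KRT15, KRT8, MUC1, KRT18 and KRT19), 3 lower (MUC5AC, SOX9 and MUC5B) and KRT7 not passing. The test was edgeR's quasi-likelihood test, and calls were made where the p adjusted by Benjamini-Hochberg over all tested genes was below 0.05. By that rule FB23-2 changed 52% of all tested genes (25.4% higher and 26.7% lower) and CS2 49.7% (24.3% higher and 25.3% lower), so 9 of 10 is to be read against about 1 gene in 2. The median log2 fold change of the 10 genes was -1.97 with FB23-2 and 0.40 with CS2, where all tested genes had 0.00 in both. Libraries did not overlap with those of DMSO for 8 of the 10 genes with FB23-2, all lower (of all tested genes 59.8% in either direction, 29.5% higher and 30.3% lower), and for 6 higher and 3 lower genes with CS2 (60.6% in either direction, 29.9% higher and 30.8% lower). Called and changed over 2-fold were 6 genes lower and 0 higher with FB23-2 (9.44% and 7.01% of all tested genes), and 1 gene lower and 1 higher with CS2, MUC5AC and FOXJ1 (9.57% and 6.32%). Without FB23-2 replicate 2 the FB23-2 count was 8 lower, with a median of -1.84. Because the 10 genes were chosen with earlier results of these data known, these counts and medians describe the list and are no independent test. Both comparisons use the same DMSO libraries, and in bulk RNA fewer cells of a type and less RNA per cell cannot be told apart.

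**Figure D1:**
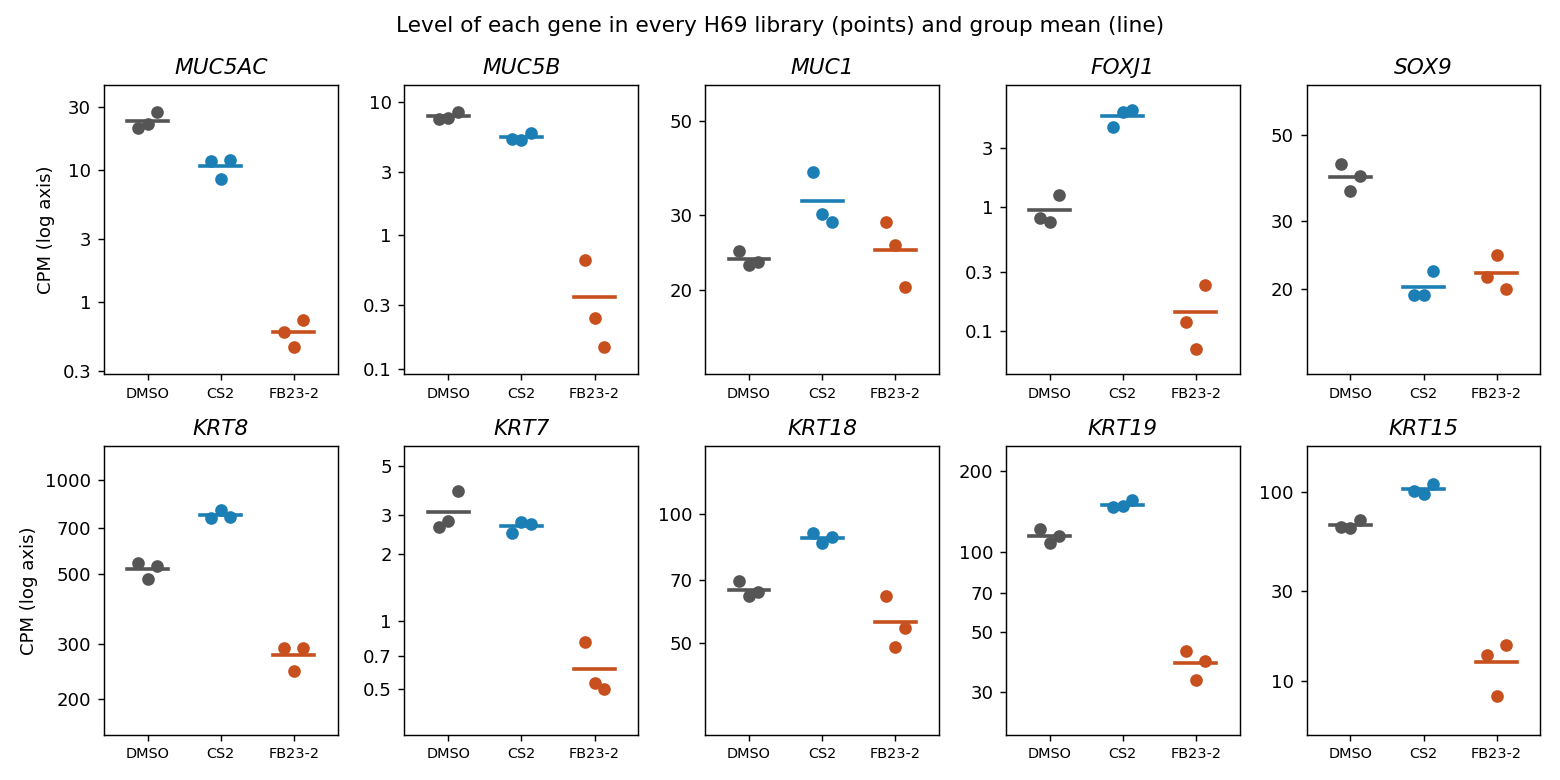
CPM on a log axis of each of the 10 genes in the 9 H69 libraries, with a point per library and a line at the mean of each group of 3. MUC5AC, MUC5B, KRT7, KRT8, KRT15, KRT19 and FOXJ1 sit lowest with FB23-2, FOXJ1 sits highest with CS2, and MUC1 overlaps between DMSO and FB23-2.

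Among the secreted mucins, MUC5AC (ENSG00000215182, chr11:1157953-1201138, plus strand), the mucin of surface goblet cells, read 20.7, 22.2 and 27.7 CPM with DMSO. It read 11.6, 8.52 and 11.98 CPM with CS2 and 0.596, 0.456 and 0.729 CPM with FB23-2. The 3 groups did not overlap, and the FB23-2 libraries held only 20, 19 and 25 reads where DMSO libraries held 788, 699 and 1246. The log2 fold change was -5.32 ± 0.20 (SE) for FB23-2 (adjusted p = 1.52e-13), the 22nd lowest of all tested genes, and -1.14 ± 0.15 for CS2 (adjusted p = 2.59e-06). FB23-2 against CS2 gave -4.18 ± 0.21 (adjusted p = 4.1e-12), or 18.2-fold lower.

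MUC5B (ENSG00000117983, chr11:1223066-1262172, plus strand), the gel-forming mucin of submucosal glands, is the next gene on the chromosome, 21.9 kb away. Its level was 7.42, 7.67 and 8.42 CPM with DMSO, 5.28, 5.23 and 5.89 CPM with CS2, and 0.656, 0.240 and 0.146 CPM with FB23-2. As for MUC5AC, every treated library was below every DMSO library, and FB23-2 was lowest. The change was -4.51 ± 0.28 for FB23-2 (adjusted p = 1.12e-10), the 46th lowest of all tested genes. For CS2 it was -0.52 ± 0.20 (adjusted p = 0.0383), a call that was lost when any single DMSO or CS2 library was left out (adjusted p = 0.0574 to 0.135) and with library size alone as the scaling. The counts of MUC5AC were 2.99 ± 0.260 times those of MUC5B with DMSO (SD, n = 3), a ratio of 1.63 to 2.21 with CS2 and of 0.909 to 5 with FB23-2, there on 5 to 22 MUC5B reads.

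MUC1 (ENSG00000185499, chr1:155185824-155192916, minus strand), the cell-surface mucin, behaved unlike the secreted pair. Its level was 24.7, 22.9 and 23.3 CPM with DMSO, 37.9, 30.2 and 28.9 CPM with CS2, and 28.9, 25.5 and 20.3 CPM with FB23-2. All CS2 libraries were above all DMSO libraries, and the FB23-2 libraries spread on both sides of DMSO. The log2 fold change was 0.45 ± 0.12 for CS2 (adjusted p = 0.00476) and 0.07 ± 0.12 for FB23-2 (adjusted p = 0.631, 95% interval -0.17 to 0.32), and the FB23-2 to CS2 difference was -0.38 ± 0.12 (adjusted p = 0.0125). All 3 values for MUC1, a short gene of 71.3% GC, moved with an offset for gene span and GC content: 0.27 for CS2 (adjusted p = 0.0543), 0.45 for FB23-2 (adjusted p = 0.00234) and 0.18 for FB23-2 against CS2 (adjusted p = 0.175). Per library, MUC1 reads were 1.02 ± 0.173 times those of MUC5AC with DMSO, 3.07 ± 0.585 times with CS2 and 44.1 ± 14.6 times with FB23-2.

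Of the keratins, KRT8 (ENSG00000170421, chr12:52897187-52949954, minus strand), the type II keratin of simple epithelia, had the highest level per kilobase of exon of the 10 genes in each group. It stood at 544, 481 and 530 CPM with DMSO, 757, 803 and 764 CPM with CS2, and 290, 246 and 291 CPM with FB23-2. The 3 groups were separate, highest with CS2 and lowest with FB23-2. The log2 fold changes were 0.58 ± 0.08 for CS2 (adjusted p = 4.54e-06), -0.91 ± 0.08 for FB23-2 (adjusted p = 1.23e-08) and -1.49 ± 0.08 for FB23-2 against CS2 (adjusted p = 1.02e-11).

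KRT18 (ENSG00000111057, chr12:52948871-52952901, plus strand) is the usual type I partner of KRT8 and its neighbour. Its level was 69.6, 64.2 and 65.7 CPM with DMSO, 90.0, 85.4 and 88.5 CPM with CS2, and 64.5, 48.95 and 54.2 CPM with FB23-2. CS2 was above DMSO in every library, by 0.40 ± 0.09 on the log2 scale (adjusted p = 0.00119). The FB23-2 and DMSO libraries overlapped, and the difference of -0.25 ± 0.09 (adjusted p = 0.0278) was lost in 8 of 19 alternatives, among them leaving out DMSO replicate 1 (adjusted p = 0.103), DMSO replicate 3 (0.0602), FB23-2 replicate 2 (0.0992) or FB23-2 replicate 3 (0.101). The offset for gene span and GC content brought it to -0.08 (adjusted p = 0.356). FB23-2 against CS2 gave -0.66 ± 0.09 (adjusted p = 4.99e-06).

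KRT19 (ENSG00000171345, chr17:41523617-41528308, minus strand), a type I keratin of simple and ductal epithelia, read 121, 108 and 115 CPM with DMSO. It read 147, 148 and 156 CPM with CS2 and 42.6, 33.1 and 39.2 CPM with FB23-2. Again the groups did not overlap, in the order CS2, DMSO, FB23-2. The changes were 0.39 ± 0.09 for CS2 (adjusted p = 0.000997), -1.58 ± 0.09 for FB23-2 (adjusted p = 3.17e-11), which is 3-fold lower, and -1.97 ± 0.09 between the compounds (adjusted p = 1.56e-12).

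KRT15 (ENSG00000171346, chr17:41513743-41522529, minus strand), a type I keratin known from basal and stem-like epithelial cells, lies 1.1 kb from KRT19. Its level was 65.4, 65.0 and 71.7 CPM with DMSO, 102, 98.2 and 110 CPM with CS2, and 13.8, 8.34 and 15.6 CPM with FB23-2. It showed the order of KRT19 with wider gaps: 0.62 ± 0.15 for CS2 (adjusted p = 0.0034), -2.43 ± 0.16 for FB23-2 (adjusted p = 2.12e-08), or 5.38-fold lower, and -3.05 ± 0.17 between the compounds (adjusted p = 1.37e-09). Reads of KRT15 per read of KRT19 were 0.589 ± 0.0441 with DMSO, 0.689 ± 0.0230 with CS2 and 0.325 ± 0.0733 with FB23-2 (SD, n = 3).

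KRT7 (ENSG00000135480, chr12:52232520-52252186, plus strand), a type II keratin of glandular epithelium, was far lower, at 2.66, 2.83 and 3.84 CPM with DMSO. CS2 libraries gave 2.51, 2.78 and 2.73 CPM and FB23-2 libraries 0.805, 0.527 and 0.496 CPM. DMSO and CS2 overlapped, with a log2 fold change of -0.23 ± 0.22 (adjusted p = 0.405, 95% interval -0.65 to 0.20). All FB23-2 libraries lay below both other groups, by 5.14-fold against DMSO (log2 fold change -2.36 ± 0.25, adjusted p = 1.96e-07) and by 4.39-fold against CS2. The antisense gene KRT7-AS, which overlaps 6.89% of the exon bases of KRT7, was not called against DMSO for CS2 (1.45, adjusted p = 0.0726) or FB23-2 (-1.09, adjusted p = 0.293). Between the compounds KRT7-AS was lower with FB23-2 (-2.54, edgeR adjusted p = 0.00642), on 8 to 20 reads a library with CS2 and 0 to 4 with FB23-2.

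The keratin pool changed in size and in make-up. The 5 keratins together held 770 ± 43.3 CPM with DMSO, 1119 ± 19.7 CPM with CS2 and 383 ± 40.7 CPM with FB23-2 (SD, n = 3). KRT8 took 67.3 ± 0.514% of these reads with DMSO, 69.2 ± 1.26% with CS2 and 72.0 ± 1.39% with FB23-2. KRT18 took 8.65 ± 0.276%, 7.86 ± 0.343% and 14.6 ± 1.07%, and KRT15 took 8.76 ± 0.537%, 9.25 ± 0.602% and 3.24 ± 0.717%. Among the type I keratins, the order per kilobase of exon was KRT19, KRT18, KRT15 with DMSO and CS2. With FB23-2 KRT18 (17.4 ± 2.46 CPM per kb) and KRT19 (16.4 ± 2.06) overlapped, far above KRT15 (1.78 ± 0.537). Over principal transcripts the FB23-2 means were further apart, 35.8 CPM per kb for KRT18 and 27.6 for KRT19.

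**Figure D2:**
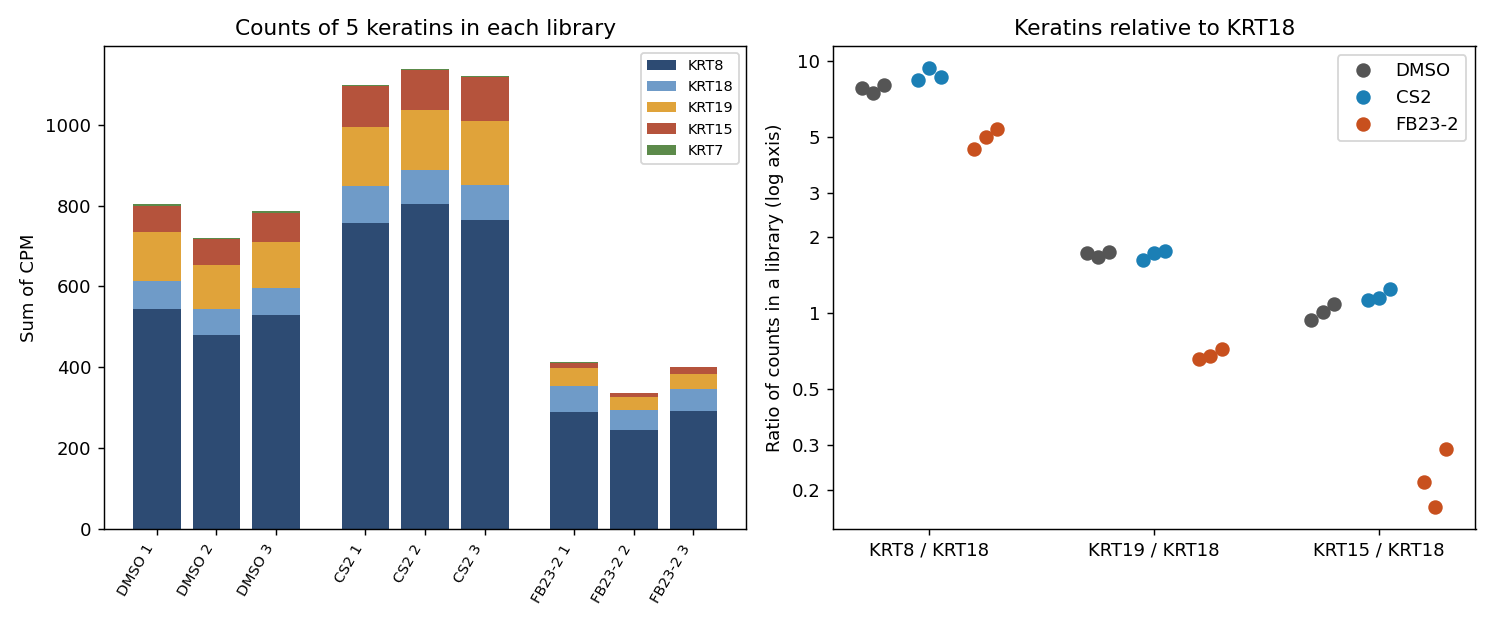
Left, stacked CPM of the 5 keratins in each library, which are reads and not molecules. Right, reads of KRT8, KRT19 and KRT15 per read of KRT18 in each library on a log axis, where FB23-2 is lowest in all 3 ratios and the DMSO and CS2 libraries lie close together.

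The KRT8 to KRT18 ratio of reads was 7.49 to 8.07 with DMSO, 8.42 to 9.41 with CS2 and 4.50 to 5.38 with FB23-2, with no overlap. KRT19 reads per KRT18 read were 1.72 ± 0.0399, 1.71 ± 0.0688 and 0.687 ± 0.0331 in the same order. KRT15 reads per KRT18 read were 1.01 ± 0.0761, 1.18 ± 0.0605 and 0.224 ± 0.0597. All 3 keratins therefore fell by a larger factor than KRT18 did with FB23-2, KRT15 by the largest. With CS2 KRT19 and KRT18 kept to nearly the same ratio.

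FOXJ1 (ENSG00000129654, chr17:76136333-76141299, minus strand), the regulator of motile cilia, was the gene with opposite changes of large size. Its level was 0.816, 0.763 and 1.24 CPM with DMSO, 4.42, 5.84 and 6.02 CPM with CS2, and 0.119, 0.0719 and 0.233 CPM with FB23-2. In reads this is 31, 24 and 56, then 150, 174 and 181, and finally 4, 3 and 8. The 3 groups were separate, CS2 highest and FB23-2 lowest. CS2 raised FOXJ1 5.66-fold (log2 fold change 2.50 ± 0.25, adjusted p = 1.2e-07), the 111th highest of all tested genes. FB23-2 lowered it 6.79-fold (-2.76 ± 0.39, adjusted p = 7.26e-06), and the pooled level of 0.137 CPM had a 95% counting interval of 0.0766 to 0.226 (exact Poisson) against 0.798 to 1.17 around 0.970 CPM with DMSO. The compounds differed by -5.26 ± 0.34 (adjusted p = 1.25e-10), the 22nd lowest value of that comparison. Per kilobase, FOXJ1 passed from the last place of the 10 genes with DMSO to above KRT7, MUC5AC and MUC5B with CS2, at 2.06 ± 0.331 CPM per kb.

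SOX9 (ENSG00000125398, chr17:72121020-72126420, plus strand), the progenitor factor, was lower with both compounds. Its level was 42.0, 35.9 and 39.1 CPM with DMSO, 19.3, 19.3 and 22.2 CPM with CS2, and 21.4, 24.5 and 19.97 CPM with FB23-2. Every treated library was below every DMSO library, and the treated groups overlapped. SOX9 fell 1.92-fold with CS2 (-0.94 ± 0.10, adjusted p = 3.96e-07) and 1.77-fold with FB23-2 (-0.83 ± 0.10, adjusted p = 1.78e-06). The difference between the compounds was 0.12 ± 0.11 (adjusted p = 0.356, 95% interval -0.09 to 0.32), and 0.26 (adjusted p = 0.0476) with the offset for span and GC content. SOX9-AS1, the antisense gene beside SOX9, was also lower, by -1.80 with CS2 (adjusted p = 1.96e-05) and -0.75 with FB23-2 (adjusted p = 0.0162).

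**Figure D3:**
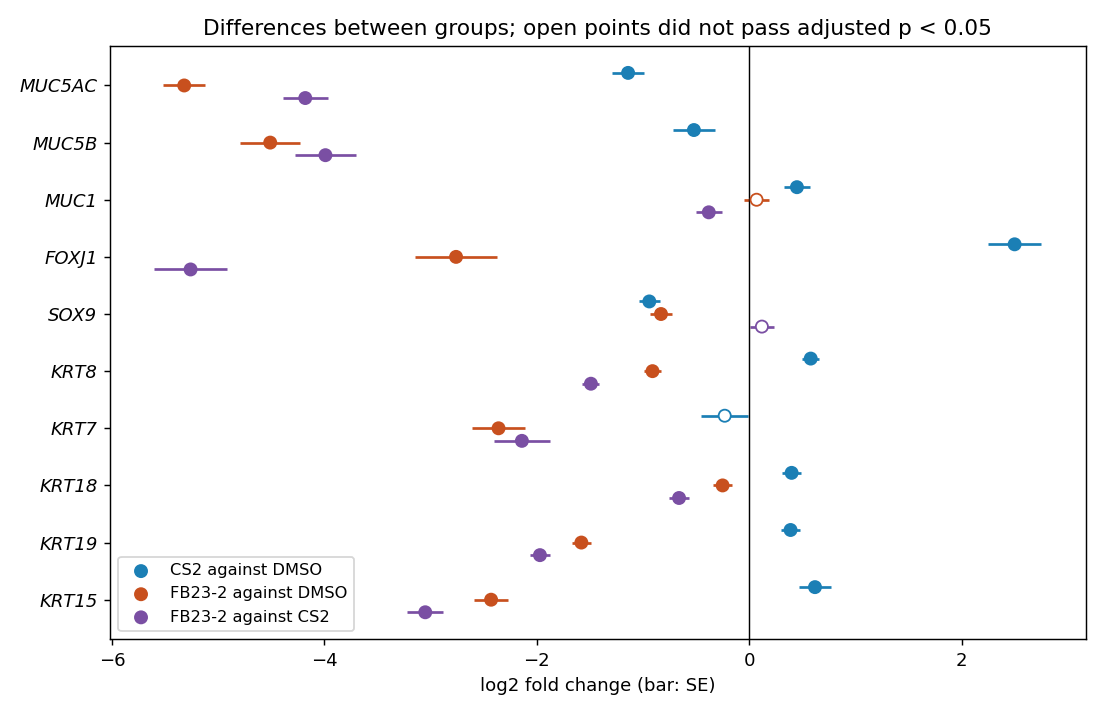
Log2 fold changes (points) with their SE (bars) of the 10 genes in the 3 comparisons, where open points did not pass an adjusted p of 0.05. FB23-2 against DMSO runs from -5.32 for MUC5AC to 0.07 for MUC1, and CS2 against DMSO from -1.14 for MUC5AC to 2.50 for FOXJ1.

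The direct test of FB23-2 against CS2 called 9 of the 10 genes, all lower with FB23-2, with SOX9 as the exception. Of all tested genes 59.6% were called in that comparison, 29.7% higher and 30% lower. For those 9 genes the libraries of the compounds did not overlap, which held for 62.9% of all tested genes in either direction, 31.3% higher and 31.6% lower. Called and over 2-fold lower were 7 of the 10 genes (11.3% of all tested genes), and 0 were over 2-fold higher (11.8%). The median of the 10 genes was -2.05 and that of all tested genes 0.01. In the order of size the differences were FOXJ1 (-5.26), MUC5AC (-4.18), MUC5B (-3.99), KRT15 (-3.05), KRT7 (-2.14), KRT19 (-1.97), KRT8 (-1.49), KRT18 (-0.66) and MUC1 (-0.38). MUC1 lost its call without CS2 replicate 1 (-0.25, adjusted p = 0.101) and without FB23-2 replicate 3 (-0.24, adjusted p = 0.101).

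The rest of the keratin and mucin families was mostly silent in these cells. Of 50 further keratin genes 7 were tested and 14 had 0 counts in all libraries, and of 14 further mucin genes 4 were tested and 3 were at 0. The seventh, KRT38, was not in the list of other keratins and was higher with both compounds, as given with the neighbours of KRT15. In that list, 6 of 32 could be tested, and with FB23-2 4 were lower and 0 higher (median -1.52), with CS2 2 lower and 0 higher (median -0.25). KRT9 and KRT83, keratins of sole skin and of hair, fell 11.7-fold (log2 fold change -3.55 ± 0.29, adjusted p = 5.49e-09) and 5.8-fold (-2.53 ± 0.25) with FB23-2. KRT80, an epithelial type II keratin, fell 2.37-fold, from 35.3 ± 1.41 to 14.95 ± 2.91 CPM. KRT10, a suprabasal skin keratin, did not pass with either compound (0.13 ± 0.16 for CS2 and -0.09 ± 0.16 for FB23-2). Without FB23-2 replicate 2 the FB23-2 count of this list was 3 lower.

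Of 17 other mucins and mucin-like genes 5 were tested, with 1 higher and 1 lower with CS2 (median 0.07) and 1 higher and 3 lower with FB23-2 (median -1.32). Without FB23-2 replicate 2 the higher genes were 2 with each compound. MUC6, the gel-forming mucin of stomach glands, fell from 66.7 ± 4.59 CPM to 36.2 ± 6.88 with CS2 (log2 fold change -0.88 ± 0.11, adjusted p = 2.35e-06) and to 13.6 ± 0.937 with FB23-2 (-2.29 ± 0.12, adjusted p = 8.18e-12). MUC19, a further gel-forming mucin, fell 4.45-fold with FB23-2, and its CS2 value was -0.50 ± 0.20 (adjusted p = 0.0544). The membrane mucin MUC20 rose 9.23-fold with CS2, from 0.837 ± 0.195 to 7.67 ± 1.52 CPM (3.21 ± 0.25, adjusted p = 2.41e-09), and was at 1.18 ± 0.314 CPM with FB23-2 (0.50 ± 0.27, adjusted p = 0.135). MUC4, a membrane mucin, fell 2.5-fold with FB23-2, and the sialomucin CD164 rose 1.43-fold.

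Genes of secretory and goblet cells were tested for 11 of 24, with 6 higher and 2 lower with CS2 (median 0.39) and 3 higher and 8 lower with FB23-2 (median -0.96). TFF3, a trefoil peptide released together with mucins, fell 3.59-fold with FB23-2, from 179 ± 14.8 to 49.9 ± 16.7 CPM (-1.84 ± 0.25, adjusted p = 0.000451). The protein disulfide isomerases AGR2 and AGR3, of which AGR2 is needed to fold mucins, fell 1.69-fold and 2.13-fold with FB23-2, while CS2 raised AGR2 1.29-fold. FOXA3, a transcription factor that drives goblet cell genes, rose 1.81-fold with CS2 and fell 3.51-fold with FB23-2. SPDEF, a further goblet cell factor, fell with both, from 0.838 ± 0.152 CPM to 0.104 ± 0.0636 with CS2 (log2 fold change -2.93 ± 0.53, adjusted p = 0.000117) and 0.115 ± 0.0655 with FB23-2 (-2.87 ± 0.51, adjusted p = 9.29e-05). SLPI, a protease inhibitor of airway secretions, rose with both, from 4, 2 and 2 counts to 12, 10 and 9 with CS2 (adjusted p = 0.00121) and 77, 91 and 107 with FB23-2 (adjusted p = 2.09e-09). GALNT7, an enzyme of mucin-type sugar chains, was the other gene lower with CS2 (-0.37 ± 0.09, adjusted p = 0.00137), and these 3 genes were named after their values were seen. WFDC2, a protease inhibitor-like protein, and CLCA4 had the directions of FOXA3: CS2 raised them 2.27-fold and 2.33-fold, and FB23-2 lowered them 1.95-fold and 1.64-fold. The CLCA4 call with FB23-2 was lost without DMSO replicate 2 and without FB23-2 replicate 2. The club cell genes SCGB1A1 and BPIFA1 had 13 and 0 counts in all.

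Among 30 tested genes of motile cilia and of the programme that multiplies centrioles (of 34), CS2 called 10 higher and 8 lower (median 0.11) and FB23-2 8 higher and 15 lower (median -0.46). RFX2 and RFX3, partners of FOXJ1 in switching on cilia genes, diverged with CS2, RFX2 rising 2.41-fold and RFX3 falling 4.98-fold, from 85.6 ± 4.39 to 17.2 ± 0.571 CPM. RFX2 spans 206 kb and RFX3 308 kb, and all genes of 200 to 500 kb had a median of -0.57 with CS2. Both CS2 calls held in all 19 alternatives, the offset for span and GC content included. With FB23-2 RFX2 rose 2-fold, and RFX3 had 0.30 ± 0.09 (adjusted p = 0.0109), which did not pass once DMSO replicate 1 or FB23-2 replicate 2 was left out. CDC20B, of the multiciliation locus, fell 4.74-fold with CS2 and 3.23-fold with FB23-2. The axoneme genes CFAP43 and RSPH1 rose with both compounds, 2.67-fold and 1.58-fold with CS2 and 1.93-fold and 2.22-fold with FB23-2, while CFAP157 fell 2.11-fold with FB23-2. TUBB4B, the main tubulin of axonemes, rose 1.27-fold with CS2 and fell 1.55-fold with FB23-2. Defining genes of ciliated cells were near 0 but not level across groups. TEKT1, a tektin of the axoneme, had 0 counts in every DMSO library, 11, 2 and 6 with CS2 and 2, 0 and 0 with FB23-2, and PIFO had 1, 14 and 9 counts summed over the 3 libraries of each group. Neither passed the filter, and DNAH9 had 7 counts in all. DNAI1, a dynein intermediate chain, had 0.155 ± 0.0904 CPM with DMSO and rose to 0.531 ± 0.0511 with CS2 (1.69 ± 0.50 on the log2 scale, adjusted p = 0.00802) and to 0.497 ± 0.165 with FB23-2 (1.57 ± 0.49, adjusted p = 0.0115, not passing without DMSO replicate 2). The radial spoke gene RSPH4A had 1.28 ± 0.50 with CS2 (adjusted p = 0.0417), not passing without DMSO replicate 1, DMSO replicate 3, CS2 replicate 1 or CS2 replicate 2. GMNC, which acts upstream of FOXJ1, fell with FB23-2 from 18, 16 and 32 counts to 0, 4 and 1 (adjusted p = 0.000117). With CS2, where FOXJ1 rose, GMNC had 8, 13 and 9 counts and did not pass (-0.82 ± 0.48, adjusted p = 0.166). These genes were named after their values were seen.

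Epithelial adhesion and transcription genes gave 8 higher and 3 lower of 24 tested (of 29) with CS2 (median 0.16) and 7 higher and 9 lower with FB23-2 (median -0.01). EHF, an ETS factor of airway and gland epithelium, fell 1.73-fold with CS2 and 11.3-fold with FB23-2 (-3.50 ± 0.16, adjusted p = 1.9e-12), from 28.1 ± 4.24 to 2.48 ± 0.380 CPM. CDH1, the E-cadherin of epithelial junctions, rose 1.97-fold with CS2 and 2.48-fold with FB23-2, and the epithelial membrane protease PRSS8 rose 3.45-fold and 10.8-fold. ESRP1, a splicing regulator of epithelial isoforms, fell 1.79-fold with CS2 and had 0.20 ± 0.09 with FB23-2 (adjusted p = 0.0637). DSP, the desmoplakin that ties keratin filaments to desmosomes, was at 965 ± 21.0 CPM with DMSO and fell 1.63-fold with FB23-2.

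Other proteins of keratin filaments and other intermediate filaments were higher with CS2, 11 of 15 tested with 2 lower (median 0.48), and mixed with FB23-2, 4 higher and 5 lower (median -0.07). With the offset for span and GC content the CS2 count was 7 higher and 3 lower. PLEC and EPPK1, plakins that link keratin filaments, rose 2.25-fold and 3.59-fold with CS2. With FB23-2 EPPK1 had -0.07 ± 0.16 (adjusted p = 0.747), and PLEC had 0.25 ± 0.09 (adjusted p = 0.0291), lost without DMSO replicate 1, DMSO replicate 2 or FB23-2 replicate 1. FAM83H, which organises keratin filaments, had the signs of KRT8, KRT15, KRT18 and KRT19. Its CS2 call was lost with the offset for span and GC content and in the test against a fold of 1.2. It was 1.31-fold higher with CS2 and 2.26-fold lower with FB23-2. Nestin (NES) rose 1.61-fold and fell 2.52-fold, whereas lamin A (LMNA) rose with both, 2.6-fold and 2.14-fold.

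**Figure D4:**
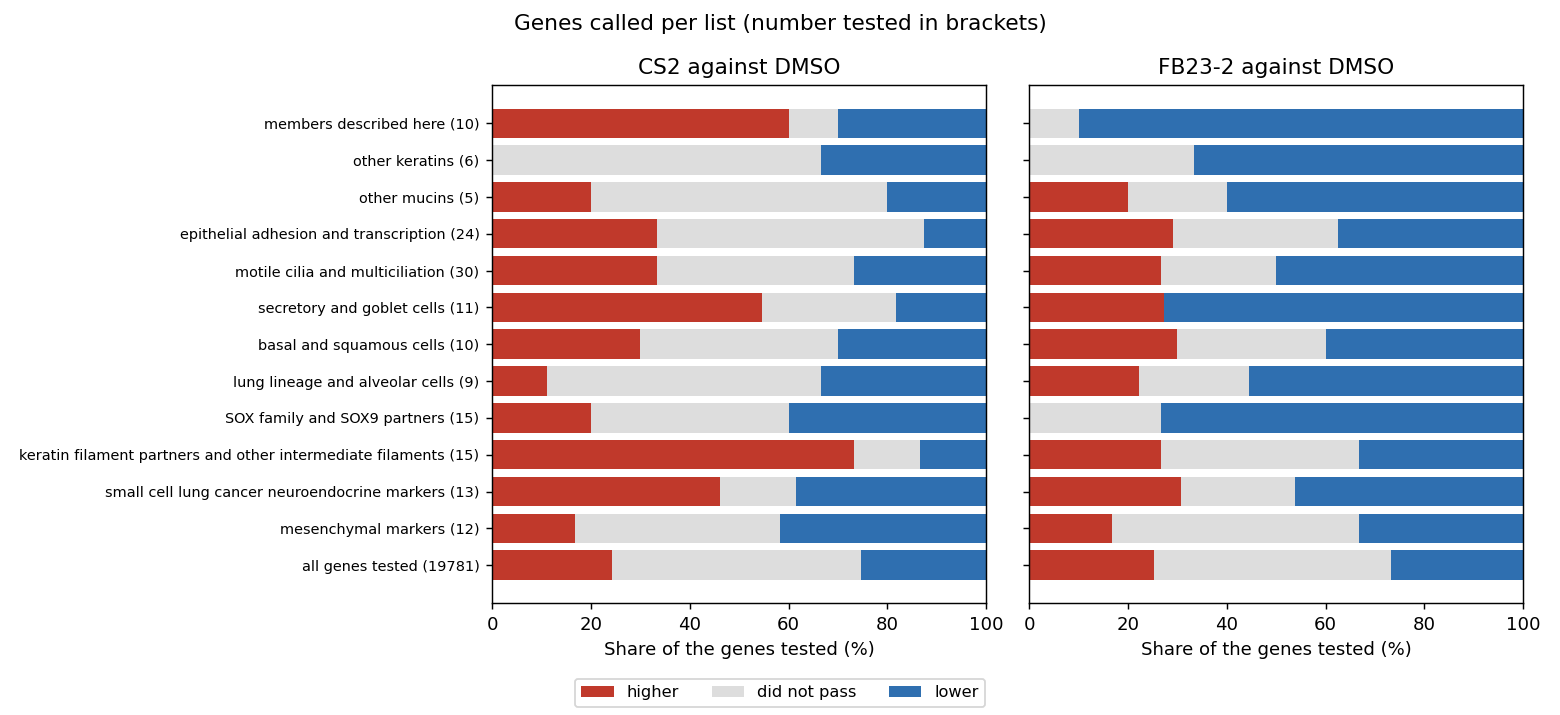
Share of the tested genes of each list called higher, lower or not passing, for CS2 (left) and FB23-2 (right) against DMSO, with the number tested in brackets. The 10 genes described here show 9 lower and 0 higher with FB23-2, against 26.7% lower and 25.4% higher of all tested genes.

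The SOX family and genes known as SOX9 partners or targets, 15 tested of 23, gave 3 higher and 6 lower with CS2 (median -0.08) and 0 higher and 11 lower with FB23-2 (median -0.76). Without FB23-2 replicate 2 the CS2 count was 5 higher and 6 lower of 16 tested, and the CS2 median was 0.05 with the offset for span and GC content. SOX5 and SOX6, which act with SOX9 in cartilage, fell 1.64-fold and 2.47-fold with CS2 and 1.97-fold and 1.53-fold with FB23-2. Their CS2 calls were lost with the offset for span and GC content, and the genes span 1033 kb and 773 kb. COL2A1, the cartilage collagen that SOX9 activates, was high, at 503 ± 17.1 CPM with DMSO, and fell 1.82-fold with FB23-2, with 0.30 ± 0.14 for CS2 (adjusted p = 0.102). SOX4 fell 1.7-fold with FB23-2.

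Basal and squamous genes (10 of 15 tested) gave 3 higher and 3 lower with CS2 (median -0.13) and 3 higher and 4 lower with FB23-2 (median -0.19), or 3 and 2 without FB23-2 replicate 2. TP63, the basal cell regulator, fell 2.56-fold and 1.92-fold, and NGFR, a basal cell receptor, rose 2.84-fold and 11.4-fold from 0.412 ± 0.236 CPM. Lung lineage and alveolar genes (9 of 18 tested) gave 1 higher and 3 lower with CS2 (median -0.09) and 2 higher and 5 lower with FB23-2 (median -0.59). The lung factor NKX2-1 rose 1.56-fold with CS2 and fell 1.53-fold with FB23-2, a fall lost with the offset for span and GC content, and FOXA2, a factor of endoderm, fell from 162 ± 5.05 CPM to 122 ± 3.93 and 82.9 ± 11.4. Among 13 tested neuroendocrine markers of 14, 6 were higher and 5 lower with CS2 and 4 higher and 6 lower with FB23-2 (medians 0.03 and -0.43).

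The surroundings of the genes were read for tested protein-coding genes within 200 kb. At the mucin cluster of chromosome 11, MUC6, MUC5AC and MUC5B were lower with both compounds, most with FB23-2, where the flanking genes had values between -0.26 and 0.06. With CS2 the flanking AP2A2 fell about as far as MUC5B. AP2A2, an endocytosis adaptor, had -0.60 for CS2 (adjusted p = 8.99e-07) and -0.12 for FB23-2 (adjusted p = 0.149), TOLLIP, an inhibitor of innate signalling, had 0.24 and -0.26 (adjusted p = 0.0446 and 0.0334), and the kinase BRSK2 passed with neither (0.05 and 0.06). Beside KRT15 and KRT19 on chromosome 17, KRT9 fell and the translation factor EIF1 rose by 0.74 with FB23-2 (adjusted p = 5.81e-08). HAP1, a trafficking protein of neurons, rose with both compounds, 3.42 with CS2 (adjusted p = 1.15e-09) and 0.91 with FB23-2 (adjusted p = 0.00957). KRT38, a hair keratin named after its values were seen, rose from 0.0370 ± 0.0641 CPM to 0.368 ± 0.119 with CS2 (adjusted p = 0.00143) and 2.64 ± 0.691 with FB23-2 (adjusted p = 3.1e-08). With 0 counts in all but 1 of the DMSO libraries no fold is given. With FB23-2 the direction is opposite to that of the keratins KRT15, KRT19 and KRT9. Around KRT8 and KRT18, the translation factor EIF4B had -0.87 with CS2 and 0.42 with FB23-2, opposite in sign to both keratins. TNS2, a tensin of focal adhesions, had their signs, 0.64 with CS2 (adjusted p = 0.00796) and -0.89 with FB23-2 (adjusted p = 0.00107), and IGFBP6, which binds insulin-like growth factor, had 1.64 (adjusted p = 0.000732) and -0.54 (adjusted p = 0.281). Of 12 neighbours of FOXJ1, 4 were higher and 5 lower with CS2 (24.3% and 25.3% of all tested genes). With FB23-2, 3 were higher and 5 lower (25.4% and 26.7%). ZACN, CDK3 and TEN1-CDK3, at means of 0.356 to 0.435 CPM, had -2.80, -2.13 and -1.58 with CS2, where FOXJ1 rose. Their values with FB23-2 were -1.77, -0.62 and -1.45. EVPL, the desmosomal envoplakin, gave 0.86 with CS2 (adjusted p = 0.000474) and -1.88 with FB23-2 (adjusted p = 3.16e-07), the same signs as FOXJ1 at 109 kb. No tested protein-coding gene lay within 200 kb of SOX9.

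**Figure D5:**
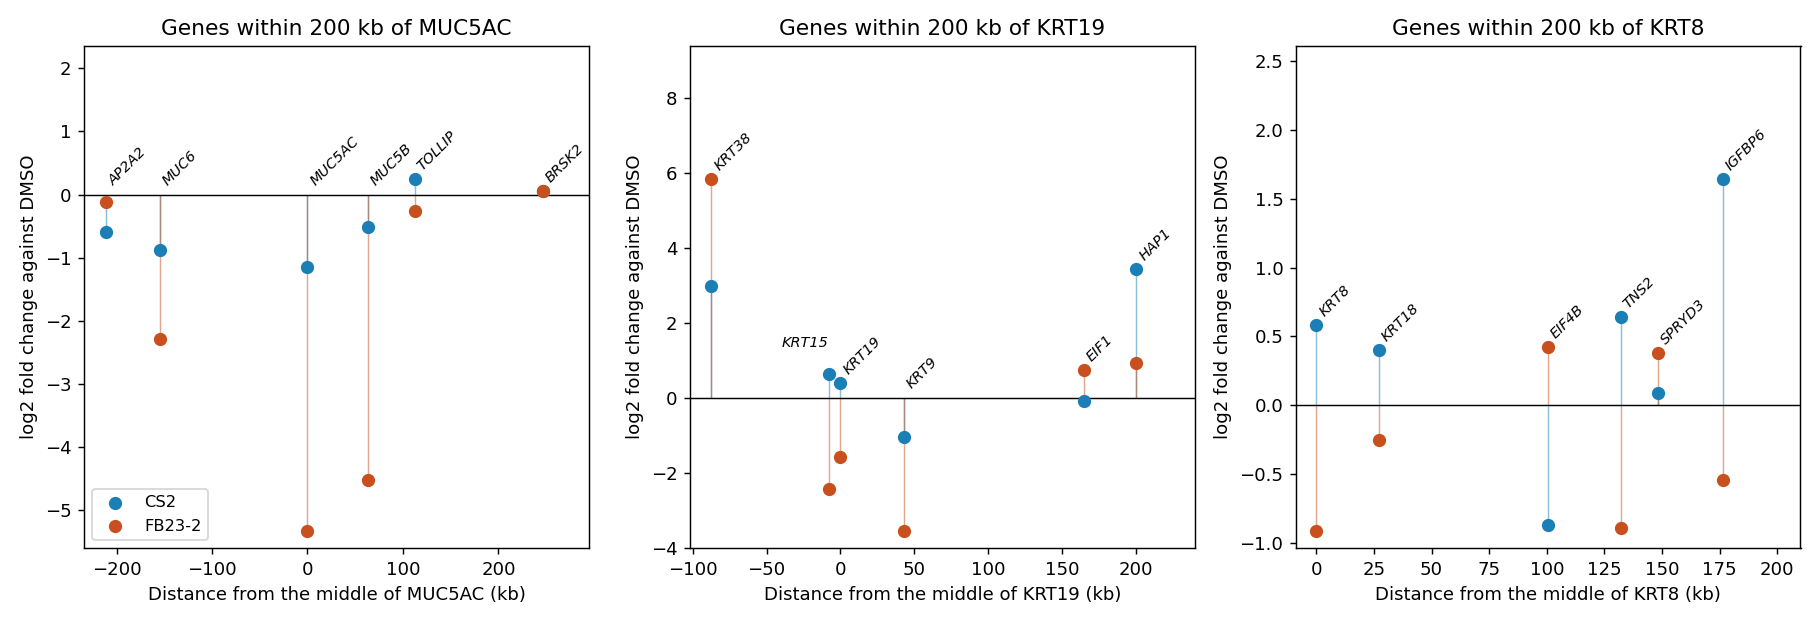
Log2 fold change against DMSO of tested protein-coding genes whose bodies lie within 200 kb of MUC5AC, KRT19 and KRT8, by distance between gene middles in kb. The 3 mucins of the cluster sit below 0 with both compounds, and KRT38 sits opposite to KRT15, KRT19 and KRT9 with FB23-2 (its values rest on few or 0 DMSO counts).

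The genes nearest to each member were sought by the distance between pairs of log2 fold changes (CS2 and FB23-2 against DMSO, over 3 conditions) among 9921 genes of at least 10 CPM. MUC5AC, MUC5B and FOXJ1 had no gene within a distance of 0.5: the nearest to MUC5AC was FAM30A at 0.912 (-2.05 and -5.26), with IGHM at 0.998, and the nearest to FOXJ1 was GRAP2 at 1.37 (1.5 and -1.84). MUC5B was nearest to MUC5AC (1.02) and EHF (1.05). KRT15 was nearest to MMP10 (0.334), a matrix protease, and SP7 (0.344), a bone cell factor, and KRT19 to TM4SF1 (0.032), a tetraspanin-like surface protein. KRT7 was nearest to KISS1R (0.078), KRT8 to PRAME (0.012), KRT18 to LY6E (0.010), SOX9 to NR2F1 (0.023) and MUC1 to NUP107 (0.002). Within 0.5 of KRT7 lay 14 genes and of KRT19 57. KRT8, SOX9, KRT18 and MUC1 lie where many genes do, with 310 genes within 0.5 of KRT8, 348 of SOX9, 2860 of KRT18 and 3293 of MUC1, so the nearest names there single out little.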

How the data were processed

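Per the labels' protocols, total RNA was isolated with TRIzol and made into mRNA libraries with the Hieff NGS Ultima Dual-mode kit. The table the authors deposited holds raw counts, whole numbers for each Ensembl gene ID. The submitters' processing notes name hg38, and the aligner, counting tool, annotation and strand setting are each not given in the sources used here. Columns named FB23 were taken as FB23-2.

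Gene symbols were found for 42343 of 62754 IDs, and coordinates, exons and transcript sequences came from GENCODE 29 on GRCh38 (Python 3.11.15). Promoter and protein sequences were not used here, and 1 keratin stretch and 1 marker gene are not reported. The counts were then fitted with edgeR 4.0.16 under R 4.3.3, using filterByExpr (minimum count 10, minimum total 15), TMM scaling, and 1 robust quasi-likelihood fit over all 9 libraries with group means, Benjamini-Hochberg adjusted over 19781 genes. The biological coefficient of variation was 0.101. An SE is the log2 fold change divided by the square root of F. Intervals from counts cover counting error only.

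The members and lists were chosen with earlier results of these data known. Named genes are all members, up to 4 called genes of each list and compound with the largest change (mean of at least 1 CPM), the 2 of highest level, and for each member the 2 nearest in both fold changes (mean of at least 10 CPM), of which part is printed. Neighbours were named by position. No 2 libraries were counted as 1, since their chi-square statistics were at least 4.16 per degree of freedom. A p-value here reflects differences among libraries that may be technical. Alternatives were RLE factors, library size alone, other filters on low counts, DESeq2 1.42.0, a replicate block, no mitochondrial genes, an offset for span and GC content, a test against a fold of 1.2, only the 2 groups compared, and each library left out. List counts without FB23-2 replicate 2 and under other scalings were added after seeing the data.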

Additional observations from a re-analysis of the deposited data

How the results depend on the processing

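Of 570 member values under 19 alternatives each, 543 kept direction and side of the threshold, 23 lost their call, 2 gained one and 2 changed sign. The sign changes were both of MUC1: FB23-2 against DMSO ranged from -0.030 without FB23-2 replicate 1 to 0.22 without FB23-2 replicate 3 when 1 library was left out (0.07 in all libraries, 0.45 with the offset for span and GC content), and FB23-2 against CS2 was 0.18 with the offset for span and GC content (-0.38 without it). The cause was not tested. Tested against a fold change of 1.2, 5 in place of 9 members were called with CS2, as MUC5B, MUC1, KRT18 and KRT19 have changes close to that size. With 1 library left out at a time, calls ranged from 8345 to 11024 genes for CS2, from 8795 to 10491 for FB23-2 and from 10965 to 11848 between the compounds, and member calls from 8 to 9 in each comparison. The 11024 CS2 calls came without FB23-2 replicate 2, against 9829 with all libraries, as the groups share 1 fit. Same-numbered libraries correlated between -0.03 and 0.02 with DMSO in the pair and at 0.167, 0.123 and 0.049 between CS2 and FB23-2. Differently numbered CS2 and FB23-2 libraries had -0.138 to 0.0203, all below the same-numbered values. Whether these numbers mark shared batches of the compounds was not tested. The labels name no pairs, and the main fit took none. A replicate block gave 10271, 10698 and 12136 called genes and changed no member call. No scaling moved the median of all genes by more than 0.052. At this depth the FB23-2 values of MUC5AC, MUC5B and FOXJ1 rest on 3 to 25 reads a library, which limits their size more than their direction.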

Other observations

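Beside the airway markers, several other genes in the lists changed, by less than MUC5AC, MUC5B and FOXJ1 did with FB23-2. LAMP3, a lysosomal protein of alveolar type II cells, rose 5.95-fold with FB23-2, with means of 2.91 ± 0.525 CPM under DMSO and 17.3 ± 2.87 CPM under FB23-2 (2.57 ± 0.16 on the log2 scale, edgeR adjusted p = 1.78e-10), and had 0.33 ± 0.18 with CS2 (adjusted p = 0.128). Its list as a whole did not rise with FB23-2, with 2 higher and 5 lower of 9 tested. ABCA3 of that list, at 358 ± 16.3 CPM with DMSO, had -0.18 ± 0.08 with FB23-2 (adjusted p = 0.0636) and -0.30 ± 0.08 with CS2 (adjusted p = 0.00349). SFTPC and SFTPB were not tested, with 22 and 15 counts in all. CDS1, a phospholipid enzyme in epithelial signatures, rose 4.79-fold with FB23-2 (2.26 ± 0.16, adjusted p = 5.04e-10) and had 0.19 ± 0.16 with CS2 (adjusted p = 0.338). The direct test between the compounds passed for both, with 2.24 ± 0.16 for LAMP3 and 2.07 ± 0.16 for CDS1. GALNT12, an enzyme that starts the O-linked sugar chains of mucins, rose 2.1-fold with CS2 and 1.3-fold with FB23-2, so it did not fall where MUC5AC and MUC5B fell.

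Of the epithelial to mesenchymal regulators, ZEB1 and SNAI1 had opposite signs, and ZEB2 and SNAI2 had negative values with both compounds. ZEB1, a repressor of CDH1, fell 1.98-fold with CS2 (-0.99 ± 0.14, adjusted p = 7.83e-06) and had 0.45 ± 0.13 with FB23-2 (adjusted p = 0.00803), which did not pass once DMSO replicate 1 or FB23-2 replicate 2 was left out. SNAI1 rose 1.66-fold with CS2 and fell 1.49-fold with FB23-2, the latter lost without DMSO replicate 3 and with the offset for span and GC content. ZEB2 had -0.74 ± 0.23 with CS2 (adjusted p = 0.0131), not passing without CS2 replicate 1 or CS2 replicate 3, and fell 1.95-fold with FB23-2 (-0.97 ± 0.23, adjusted p = 0.00183). SNAI2 had -0.35 ± 0.13 with CS2 (adjusted p = 0.0252), which did not pass once DMSO replicate 2, DMSO replicate 3, CS2 replicate 2 or CS2 replicate 3 was left out, and -0.26 ± 0.12 with FB23-2 (adjusted p = 0.0879). CDH1 was higher with both compounds. COL1A2, a fibrillar collagen, fell 4.45-fold with FB23-2, from 53.0 ± 0.913 to 11.95 ± 2.36 CPM, and 1.51-fold with CS2.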
